A study of Mus musculus with 19 samples.

Results

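The 10 T cell marker genes, which include the delta chain of gamma-delta T cells, were followed through bulk RNA sequencing of mouse skin tumours and normal skin. They were the rows of the count table whose Ensembl identifiers map to Cd3d, Cd3e, Cd3g, Cd4, Cd8a, Trac, Trdc, Foxp3, Gzmb and Nkg7, 10 of 34807 genes, and all 10 passed the filter on low counts of at least 5 counts in at least 1 library. The tumours expressed BRAFV600E, an activated kinase of the MAPK pathway. It was switched on by tamoxifen-inducible Cre under the Ivl, K5 (Krt5) or K14 (Krt14) promoter. Ivl is active in differentiating keratinocytes, and K5 and K14 are active in basal keratinocytes, so the first group is Ivl:BRAFV600E (6 tumours), the next K5:BRAFV600E (5 tumours) and the last K14:BRAFV600E (4 tumours), all labelled squamous cell carcinoma. The comparison group was wild-type (WT) normal skin without the oncogene (4 libraries), and the labels give all 19 samples as female. The 9 tumours of the basal promoters were also pooled into 1 group, K5/K14. The promoters limit where the oncogene starts, not which cells enter the sample: each library holds RNA of whole tissue, so fewer T cells and less RNA per T cell cannot be told apart.

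T cells recognise antigen through a receptor of 2 variable chains, alpha and beta or gamma and delta, which reaches the cell surface only with the CD3 chains that carry its signal. Mouse epidermis is known for dendritic epidermal T cells, a resident gamma-delta population with an almost invariant receptor, while the dermis holds other gamma-delta cells that can make interleukin-17, as well as alpha-beta T cells and regulatory T cells. Cd4 and Cd8a encode the coreceptors of helper and cytotoxic T cells, Foxp3 the defining transcription factor of regulatory T cells, and Gzmb and Nkg7 a protease and a membrane protein of cytotoxic granules. Macrophages and dendritic cells can also carry Cd4, natural killer cells share Gzmb and Nkg7, and some gamma-delta cells have Cd8a.

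The 3 CD3 genes are neighbours on mouse chromosome 9 (GRCm38): Cd3g at chr9:44969572-44980431 on the minus strand, Cd3d at chr9:44981786-44987339 on the plus strand and Cd3e at chr9:44998740-45009627 on the minus strand. Their promoters are shown because their transcripts moved together, and that of Gzmb (chr14:56258838-56262260, minus strand) because its values against skin had the opposite sign. Each sequence is the 250 bases before the RefSeq start on GRCm38.p6, 5′ to 3′ on the strand of the gene, at chr9:44980432-44980681, chr9:44981536-44981785, chr9:45009612-45009861 and chr14:56262335-56262584 in the order printed. Capitals mark matches on either strand to the E-box letters CAGGTG, bound by basic helix-loop-helix factors, to the core GGAAG of the ETS family, to the motif TGTGGT of RUNX factors and to the TATA box letters TATAAA.
Cd3g: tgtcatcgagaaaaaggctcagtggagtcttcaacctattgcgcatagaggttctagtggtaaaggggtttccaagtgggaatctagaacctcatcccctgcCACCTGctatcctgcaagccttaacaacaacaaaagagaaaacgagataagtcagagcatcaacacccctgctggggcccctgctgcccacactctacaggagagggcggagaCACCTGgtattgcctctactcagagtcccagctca
Cd3d: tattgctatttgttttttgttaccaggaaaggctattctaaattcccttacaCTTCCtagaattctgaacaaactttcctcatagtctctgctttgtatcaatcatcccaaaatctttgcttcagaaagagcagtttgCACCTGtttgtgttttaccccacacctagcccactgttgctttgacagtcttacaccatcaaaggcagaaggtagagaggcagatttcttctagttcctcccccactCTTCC
Cd3e: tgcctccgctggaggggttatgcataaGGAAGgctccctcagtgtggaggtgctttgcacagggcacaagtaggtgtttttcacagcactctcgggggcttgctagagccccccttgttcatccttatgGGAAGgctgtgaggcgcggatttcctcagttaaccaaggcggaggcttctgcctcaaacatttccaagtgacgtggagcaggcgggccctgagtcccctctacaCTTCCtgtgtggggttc
Gzmb: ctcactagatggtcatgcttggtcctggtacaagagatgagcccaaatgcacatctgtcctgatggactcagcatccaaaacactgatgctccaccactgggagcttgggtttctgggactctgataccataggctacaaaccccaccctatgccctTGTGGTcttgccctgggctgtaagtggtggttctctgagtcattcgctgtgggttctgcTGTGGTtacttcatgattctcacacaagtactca
Cd3g had 2 E-box matches and Cd3d 1, where 17.2% of 32851 promoters of this length held at least 1. The ETS core matched 3 times in Cd3e and 2 times in Cd3d, but 64.1% of all promoters held it. Gzmb had 2 RUNX matches, a motif held by 14.0% of promoters, and none of these 4 windows held the TATA box, which 12.4% did. A match is a description of letters only. RefSeq promoters were matched for 7 of the 10 genes.

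Total counts lay between 45715309 and 72609771 per library. The counts had been adjusted for a sequencing batch by the authors. Ivl tumours 1, 2 and 3 and K5 tumour 1, called the set of 4 here, had been set apart in an earlier analysis of these data as a likely sequencing batch, although the labels do not place them together. The libraries were placed over 321 genes that differed between skin and the other tumours by more than 4 on the log2 scale. The mean profile of the set of 4 lay at 0.328 of the way from tumours to skin. The range within it was wide: Ivl tumours 2 and 3 lay at 0.775 and 0.739, Ivl tumour 1 at -0.0858 and K5 tumour 1 at -0.113, whereas the other 11 tumours each lay between -0.119 and 0.309. Each result below was therefore computed over all 19 libraries and over the 15 outside the set (3 Ivl, 4 K5, 4 K14 and 4 skin). Keratinocyte markers, as a check of the tissue, were higher in the tumours: the sum of 6 genes ranged from 5145 to 10650 CPM (counts scaled to library size with the trimmed mean of M values) in skin and from 32382 to 98580 CPM in Ivl tumours.

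All 10 T cell genes were low. The highest of the 190 values was 794 counts or 7.75 CPM, for Cd3g in normal skin 4, and 80 of the 190 values were under 30 counts. The only 0 was Cd3d in K5 tumour 5, which at that depth allows up to 3 counts, or 0.0532 CPM. Such counts limit the precision of every value given here.

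**Figure D1:**
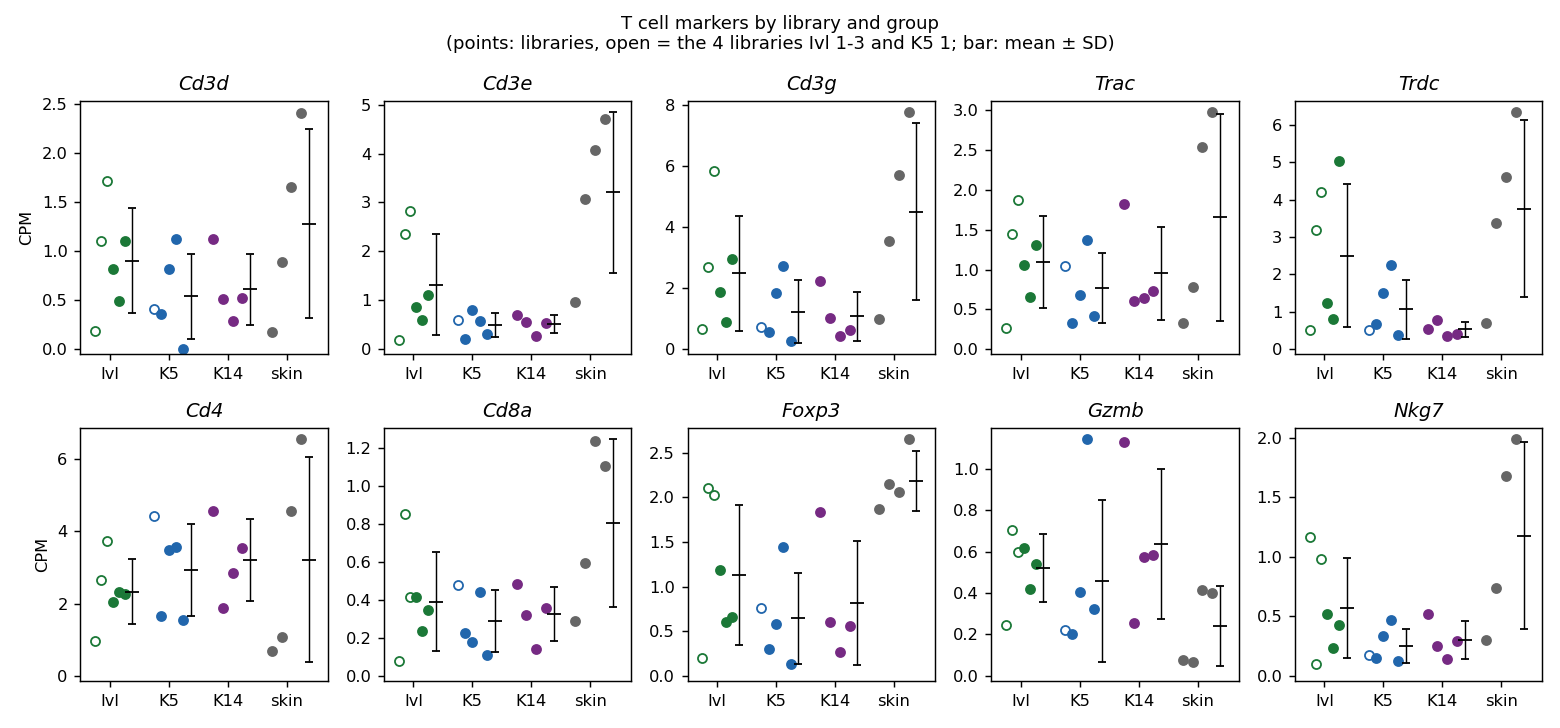
CPM of the 10 T cell genes (vertical axes, linear from 0) in each library of the 4 groups, with open points for the set of 4 and bars for the group mean ± SD. Skin libraries 3 and 4 stand above skin 1 in every panel, and Foxp3 in skin lies between 1.87 and 2.65 CPM, the narrowest skin range of the 10 relative to its mean.

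Among the CD3 chains, Cd3e showed the clearest separation between tumours and skin. Its counts were 73, 273, 435 and 483 in skin, 37, 8, 35, 25 and 14 in K5 tumours, 35, 24, 11 and 26 in K14 tumours, and 12 to 184 with a median of 50.5 in Ivl tumours. Every K5 and K14 tumour lay below every skin library, while Ivl tumours 2, 3 and 6 (144, 184 and 58 counts, 2.36, 2.82 and 1.12 CPM) lay within the range of skin in CPM. In K5/K14 tumours Cd3e fell by 2.66 ± 0.51 (SE) on the log2 scale (edgeR quasi-likelihood test, Benjamini-Hochberg adjusted p = 2.4e-04), from 3.2 ± 1.64 to 0.503 ± 0.203 CPM (SD, n = 4 and 9). The Ivl value was -1.28 ± 0.56 over 19 libraries (edgeR, adjusted p = 0.079) and -1.91 ± 0.54 over the 15, where it passed the test (adjusted p = 0.0077).

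Cd3g, the gamma chain of CD3, had 75, 316, 607 and 794 counts in skin, 45, 22, 81, 117 and 12 in K5 tumours, 111, 44, 18 and 30 in K14 tumours, and 38 to 380 (median 123.5) in Ivl tumours. Skin 1 lay inside the range of the tumours, so the groups overlapped. The gene fell by 1.96 ± 0.59 (SE) on the log2 scale in K5/K14 tumours (edgeR, adjusted p = 0.0084). Against skin, the Ivl tumours gave -0.86 ± 0.66 (adjusted p = 0.29), and this did not pass the test over the 15 libraries either (adjusted p = 0.19).

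Cd3d, the delta chain of CD3, had the fewest counts of the 3 in each skin library: 13, 79, 176 and 247 in skin, 26, 14, 36, 48 and 0 in K5 tumours, 56, 22, 12 and 25 in K14 tumours, and 12 to 112 (median 49) in Ivl tumours. The log2 fold changes were -1.16 ± 0.69 in K5/K14 tumours (edgeR, adjusted p = 0.15) and -0.51 ± 0.76 in Ivl tumours (adjusted p = 0.59). Neither passed the test. Skin 1 at 0.171 CPM lay below all but 1 of the 15 tumours. Cd247, the zeta chain, was not among the 10 genes but fell by 1.54 ± 0.44 in K5/K14 tumours (edgeR, adjusted p = 0.0058). It shares 3213 of its 5329 exon bases with other genes, mostly Pou2f1 on the opposite strand, so its counts are uncertain. The part of this sharing in its values was not tested.

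Trdc and Trac are the constant segments of the delta and alpha receptor chains and lie near each other on chromosome 14, at chr14:54142851-54148868 and chr14:54220521-54224206 on the plus strand. Trdc had 54, 300, 492 and 650 counts in skin, 33, 27, 66, 97 and 17 in K5 tumours, 27, 34, 15 and 20 in K14 tumours, and 33 to 275 (median 128) in Ivl tumours. The 3 higher skin libraries lay above all K5 and K14 tumours, with Ivl tumour 2 just under them at 3.18 CPM and Ivl tumours 3 and 6 among them at 4.21 and 5.05 CPM. Trdc fell by 2.19 ± 0.59 (SE) on the log2 scale in K5/K14 tumours (edgeR, adjusted p = 0.0040), and in Ivl tumours the value was -0.59 ± 0.66 (adjusted p = 0.46).

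Trac had 25, 69, 271 and 306 counts in skin, 66, 13, 30, 59 and 19 in K5 tumours, 91, 26, 27 and 35 in K14 tumours, and 17 to 122 (median 60.5) in Ivl tumours. Its log2 values, -0.96 ± 0.53 (SE) in K5/K14 tumours (edgeR, adjusted p = 0.12) and -0.59 ± 0.58 in Ivl tumours (adjusted p = 0.40), did not pass the test. Leaving out K14 tumour 1 or normal skin 1 brought Trac in K5/K14 tumours past it, at -1.29 in both cases (adjusted p = 0.041 and 0.039).

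Cd4 had the values nearest to 0 of the 10 genes in both comparisons with skin. Counts were 52, 95, 486 and 672 in skin, 279, 65, 154, 153 and 72 in K5 tumours, 227, 81, 119 and 170 in K14 tumours, and 62 to 243 (median 110) in Ivl tumours. Skin itself spanned 0.686 to 6.56 CPM and enclosed every tumour. The log2 fold changes were -0.07 ± 0.47 (SE) in K5/K14 tumours (edgeR, adjusted p = 0.90) and -0.47 ± 0.50 in Ivl tumours (adjusted p = 0.44).

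Cd8a had 22, 53, 132 and 113 counts in skin, 30, 9, 8, 19 and 5 in K5 tumours, 24, 14, 6 and 17 in K14 tumours, and 5 to 52 (median 19.5) in Ivl tumours. K5 and K14 tumours overlapped with skin only through the lowest skin library, while Ivl tumour 2 at 0.854 CPM reached above the lower skin libraries. It fell by 1.4 ± 0.49 (SE) on the log2 scale in K5/K14 tumours (edgeR, adjusted p = 0.020), a call that was lost without normal skin 3 (-1.11, adjusted p = 0.088) or without normal skin 4 (-1.21, adjusted p = 0.066). In Ivl tumours the value was -1.04 ± 0.54 (adjusted p = 0.13), and it passed the test only when Ivl tumour 2 was left out (-1.44, adjusted p = 0.037).

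Foxp3 was unlike the receptor genes in skin, where all 4 libraries were near each other, at 142, 191, 220 and 272 counts (1.87, 2.15, 2.06 and 2.65 CPM). Counts were 48, 12, 26, 62 and 6 in K5 tumours, 91, 26, 11 and 27 in K14 tumours, and 13 to 132 (median 47) in Ivl tumours. All 9 K5 and K14 tumours lay below all skin libraries, and so did the 3 Ivl tumours outside the set of 4, but Ivl tumours 2 and 3 (2.1 and 2.02 CPM) did not. Foxp3 fell by 1.59 ± 0.55 (SE) on the log2 scale in K5/K14 tumours (edgeR, adjusted p = 0.018), and the Ivl value was -0.95 ± 0.61 (adjusted p = 0.21). The gene (chrX:7573644-7595245) shares 2082 bases with other genes, among them Flicr on the same strand and Ppp1r3f on the opposite strand, and 23.1% of its 50-base transcript windows occur in transcripts of other genes, so its counts are uncertain. The part of this sharing in the result was not tested.

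The 2 granule genes went different ways. Nkg7 had 23, 66, 179 and 204 counts in skin, 11, 6, 15, 20 and 6 in K5 tumours, 26, 11, 6 and 14 in K14 tumours, and 6 to 76 (median 24) in Ivl tumours. It fell by 2.09 ± 0.54 (SE) on the log2 scale in K5/K14 tumours (edgeR, adjusted p = 0.0028). In Ivl tumours it was -1.04 ± 0.59 over 19 libraries (adjusted p = 0.16) and -1.58 ± 0.62 over the 15 (adjusted p = 0.041), where it passed the test.

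Gzmb was the only one of the 10 with a positive value against skin. Counts were 6, 6, 44 and 41 in skin, 14, 8, 18, 49 and 15 in K5 tumours, 56, 11, 24 and 28 in K14 tumours, and 16 to 43 (median 29.5) in Ivl tumours. Skin 1 and 2 at 0.0791 and 0.0674 CPM lay below every tumour, and skin 3 and 4 at 0.412 and 0.400 CPM lay among them. The values were 1.1 ± 0.60 (SE) on the log2 scale in Ivl tumours (edgeR, adjusted p = 0.14) and 1.15 ± 0.57 in K5/K14 tumours (adjusted p = 0.086), and neither passed the test. Outside the set of 4, the 3 Ivl tumours all lay above skin (0.422 to 0.615 CPM).

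Counted together, 6 of the 10 genes fell in K5/K14 tumours against skin and none rose: Cd3e, Cd3g, Trdc, Cd8a, Foxp3 and Nkg7. Of all 32031 genes tested, 62.2% were called in this comparison, 38.9% lower and 23.2% higher. The same 6 passed over the 15 libraries, where 66.2% of all genes were called, 42.3% lower and 23.9% higher. The median log2 value over the 10 genes was -1.50, against -0.60 over all genes. Groups did not overlap for Cd3e and Foxp3, in a comparison where 24.6% of all genes lay wholly lower in the tumours (28.2% over the 15 libraries).

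In Ivl tumours against skin, 0 of the 10 passed the edgeR test over 19 libraries, and Cd3e alone had an unadjusted p under 0.05 (0.034). Its call appeared when Ivl tumour 2 was left out (-1.52, adjusted p = 0.043), and likewise Ivl tumour 3 (-1.65, adjusted p = 0.023) and the first skin library (-1.58, adjusted p = 0.042). DESeq2 called 1, Cd3e, and 36.5% of all genes. With edgeR, 35.9% of all genes were called, 15.5% lower and 20.4% higher, and with DESeq2 size factors in place of the trimmed mean 45.6% of the called genes were higher instead of 56.8%, and the median of all genes moved from -0.46 to -0.59. Over the 15 libraries Cd3e and Nkg7 fell, while 54.9% of all genes were called, 32.7% lower and 22.2% higher. There, Foxp3 lay wholly below skin and Gzmb wholly above it, as did 35.5% and 22.3% of all genes in those directions. The median of the 10 was -0.73 over 19 libraries, with -0.46 for all genes, and -0.98 over 15, with -0.66 for all genes.

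**Figure D2:**
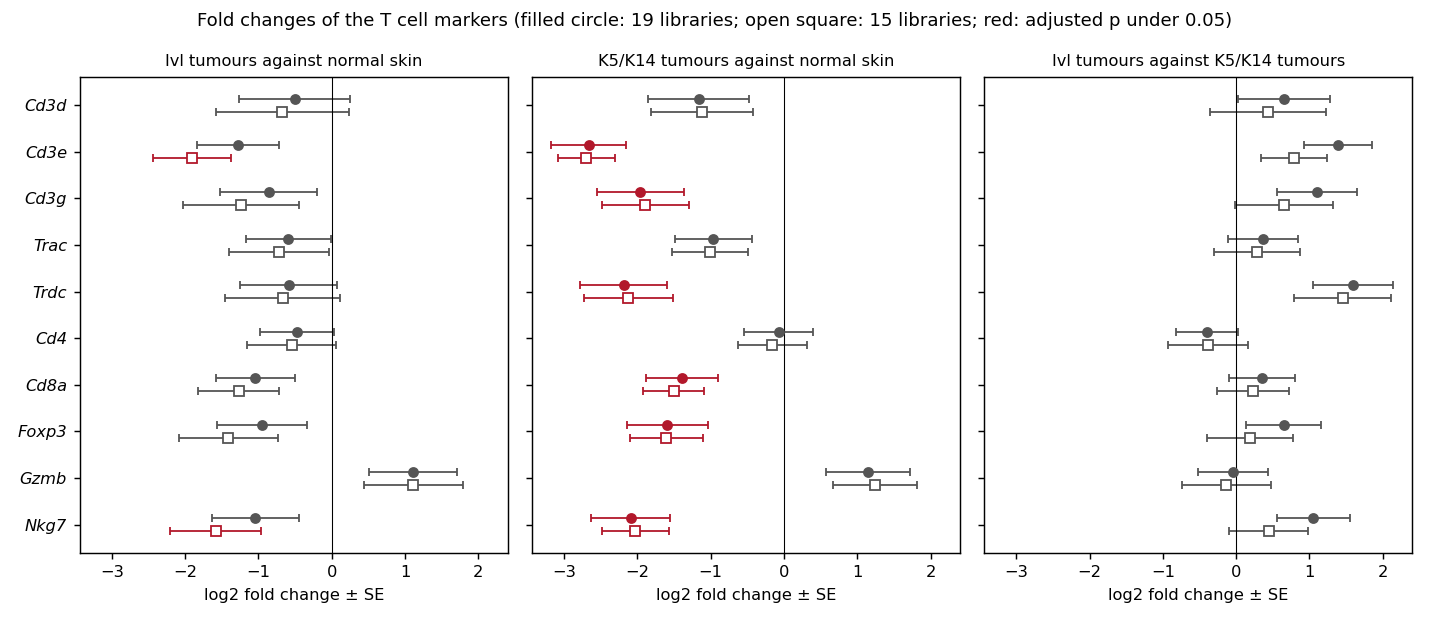
Log2 fold change ± SE (horizontal axis) of the 10 genes in 3 comparisons, over 19 libraries (filled circles) and 15 libraries (open squares), red where the edgeR adjusted p was under 0.05. In the K5/K14 panel 6 genes are red in both fits, in the Ivl panel only Cd3e and Nkg7 over 15 libraries, and in the Ivl against K5/K14 panel none.

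The direct comparison asked whether tumours started from the Ivl promoter differed from K5/K14 tumours in these genes. In the study, Ivl tumours appeared much later after induction than K5 and K14 tumours. Its methods also give tamoxifen for Ivl mice and a hydroxylated form of it for K5 and K14 mice. Promoter, latency and inducing drug therefore cannot be told apart in any comparison of these groups. None of the 10 passed the edgeR test, in a comparison where 2.36% of all genes did, and 3 had an unadjusted p under 0.05. These were Trdc (1.6 ± 0.54 on the log2 scale, adjusted p = 0.11), Cd3e (1.39 ± 0.47, adjusted p = 0.10) and Nkg7 (1.05 ± 0.50, adjusted p = 0.23). DESeq2, which called 6.66% of all genes here, called Trdc and Cd3e (adjusted p = 0.048 and 0.047), and edgeR called Cd3e when Ivl tumour 1 was left out (1.62, adjusted p = 0.042). Over the 15 libraries Trdc was 1.45 ± 0.66 (edgeR, adjusted p = 0.42) and Cd3e 0.79 ± 0.45 (adjusted p = 0.55), where 0.41% of all genes were called. An Ivl tumour outside the set of 4, Ivl tumour 6, held the highest Trdc value of the 15 tumours in CPM. The Ivl and K5/K14 comparisons with skin share the same 4 skin libraries, so their values are not independent of each other.

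K5 against K14 tumours gave 0 calls among the 10 genes and 0 among all 32031 (edgeR, 1945 genes at an unadjusted p under 0.05), and DESeq2 called 173 genes (0.54%), none of them among the 10. Over the 15 libraries edgeR again called 0 of the 10, where 0.0532% of all genes were called. The value farthest from 0 was that of Trdc, 1.01 ± 0.71 (SE) on the log2 scale (adjusted p = 0.89), with 0.367 to 2.26 CPM in K5 tumours and 0.359 to 0.784 CPM in K14 tumours.

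Ratios of counts within a library, with 0.5 added to each count, compare genes without a scaling for library size. The counts had already been adjusted for batch across libraries, and this can still enter the ratios. Its part in them was not tested. The Trdc to Trac ratio, delta against alpha chain, was 2.14, 4.32, 1.81 and 2.12 in skin, 0.504, 2.04, 2.18, 1.64 and 0.897 in K5 tumours, 0.301, 1.30, 0.564 and 0.577 in K14 tumours, and 1.17 to 3.83 with a median of 2.06 in Ivl tumours. On the log2 scale the K5/K14 tumours were lower than skin by 1.43, with means of -0.14 ± 1.01 and 1.29 ± 0.56 (SD, two-sided exact permutation test, p = 0.020, adjusted over 9 ratio tests p = 0.044), and over the 15 libraries the difference was -1.32 with an adjusted p of 0.064. The call was also lost when any 1 library other than K5 tumour 2 or 3 was left out of this comparison, with differences of -1.57 to -1.15. Leaving out a library also raises the lowest p that the exact test can give. Against skin, Ivl tumours gave -0.34 (exact permutation test, adjusted p = 0.45) and lay 1.09 above K5/K14 tumours (adjusted p = 0.063), which did not pass the test. It passed without K5 tumour 2 (1.23, adjusted p = 0.038) or K5 tumour 3 (1.24, adjusted p = 0.032).

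The Cd8a to Cd4 ratio was 0.429, 0.560, 0.272 and 0.169 in skin, 0.0550 to 0.145 in K5 tumours, 0.0544 to 0.178 in K14 tumours and 0.0880 to 0.325 in Ivl tumours. Only 1 of the 9 K5/K14 tumours reached the lowest skin library. The log2 difference between K5/K14 tumours and skin was -1.71 (exact permutation test, p = 0.0056, adjusted p = 0.025), and -1.73 over the 15 libraries (adjusted p = 0.036). Without normal skin 1, 2 or 3 the adjusted p was 0.055, at -1.58, -1.45 and -1.80. With fewer skin libraries the lowest p that the exact test can give is also higher. Since Cd4 is also carried by myeloid cells, the ratio is not one of T cell classes alone. For Ivl tumours it was -1.12 (adjusted p = 0.086).

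Cd3e relative to Ptprc, the gene of CD45 on all leukocytes, asked whether T cell transcripts moved with those of leukocytes as a whole. The ratio was 0.0435, 0.113, 0.0437 and 0.0478 in skin, 0.0194 to 0.0341 in K5 tumours, 0.0213 to 0.0419 in K14 tumours and 0.0231 to 0.0597 in Ivl tumours. All 9 K5/K14 tumours lay below all 4 skin libraries. The log2 difference was -1.12 (exact permutation test, p = 0.0028, adjusted p = 0.025), and the adjusted p was 0.055 without normal skin 1 (-1.24), 2 (-0.79) or 3 (-1.24). In each of these cases the groups still did not overlap, so p was the lowest the exact test can give there. The adjusted p also depends on the other ratio tests, so 0.055 alone does not show a weaker difference. Ivl tumours were 0.73 above K5/K14 tumours (adjusted p = 0.038), and over the 15 libraries the difference was 0.97 with an adjusted p of 0.064. That call was lost without Ivl tumour 2, 3, 4 or 6, K5 tumour 4 or 5 or K14 tumour 1 or 3, at 0.64 to 0.72. From skin they differed by -0.39 (adjusted p = 0.45). Ptprc itself fell by 1.63 ± 0.47 (SE) on the log2 scale in K5/K14 tumours (edgeR, adjusted p = 0.0064).

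**Figure D3:**
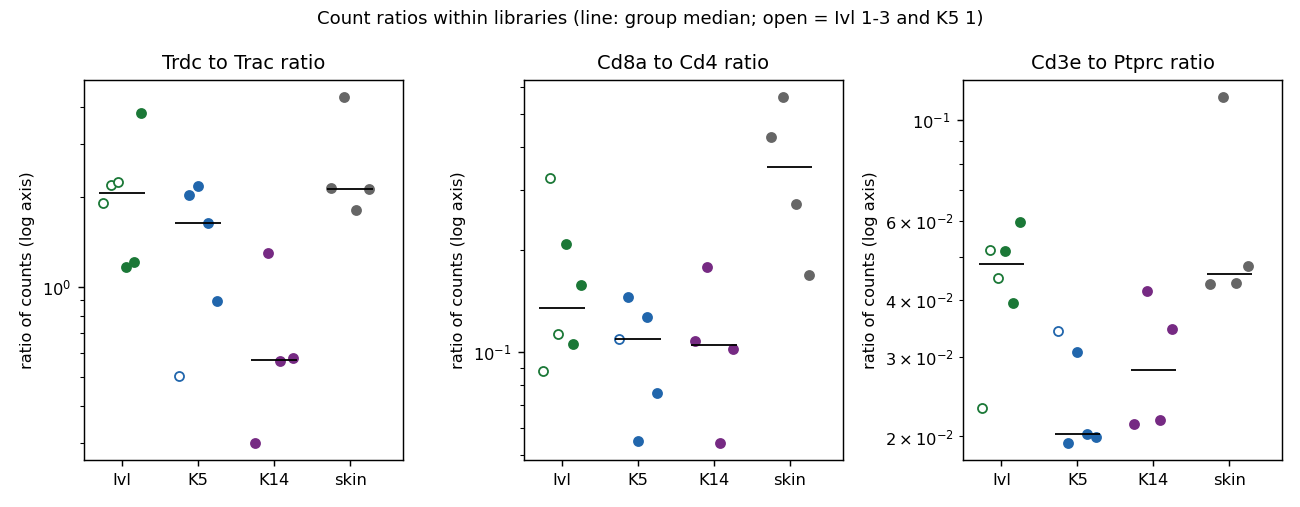
Ratios of counts in each library (vertical axes, log scale) for Trdc to Trac, Cd8a to Cd4 and Cd3e to Ptprc, with a line at the group median and open points for the set of 4. In the Cd3e to Ptprc panel all K5 and K14 points (0.0194 to 0.0419) lie below all skin points (0.0435 to 0.113).

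Levels of different genes were compared as mean CPM per kilobase of exon. In skin the order was Trac (1.77 ± 1.39, SD, n = 4), Cd3g (1.37 ± 0.89), Nkg7 (1.29 ± 0.86), Trdc (0.972 ± 0.613), Cd4 (0.798 ± 0.701), Cd3e (0.785 ± 0.402), Cd3d (0.705 ± 0.532), Foxp3 (0.477 ± 0.073), Cd8a (0.222 ± 0.121) and Gzmb (0.167 ± 0.134). Neighbours in this order differed by less than the larger of their SDs, except Foxp3 and Cd8a. Cd3d and Foxp3 differed by less than the SD of Cd3d but by more than that of Foxp3. In K5/K14 tumours Trac (0.909 ± 0.520) and Cd4 (0.758 ± 0.285) came first, Gzmb followed at 0.374 ± 0.255, Trdc stood at 0.214 ± 0.166 and Cd3e at 0.123 ± 0.050. In Ivl tumours the order began with Trac (1.17 ± 0.62), Cd3g (0.758 ± 0.575) and Trdc (0.646 ± 0.496) and ended with Cd8a (0.107 ± 0.072).

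The genes most like the CD3 chains across libraries were found by Pearson's r between log2 CPM and the mean standardised log2 CPM of Cd3d, Cd3e and Cd3g, over 19 libraries and 15361 genes with a mean of at least 1 CPM. They were Cd247 (r = 0.985), the interleukin-2 receptor chain Il2rb (0.968), the lymphocyte transcription factor Ikzf3 (0.958), the integrin of epithelial T cells Itgae (0.957) and the cytokine receptor Flt3 (0.939). The points share group structure and depth, so r is a description. The counts of Cd247 are uncertain, given the exon bases it shares with other genes. Among the 10 genes, Trdc (0.898), Foxp3 (0.878), Cd8a (0.850) and Trac (0.848) had the higher values over 19 libraries, followed by Nkg7 (0.636), Cd4 (0.496) and Gzmb (0.213). This order depended on the libraries. Over the 15 tumours Nkg7 was at 0.371, below Gzmb (0.585) and Cd4 (0.545), and over the 15 libraries outside the set of 4 Nkg7 was at 0.949, Cd4 at 0.467 and Gzmb at 0.0795.

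**Figure D4:**
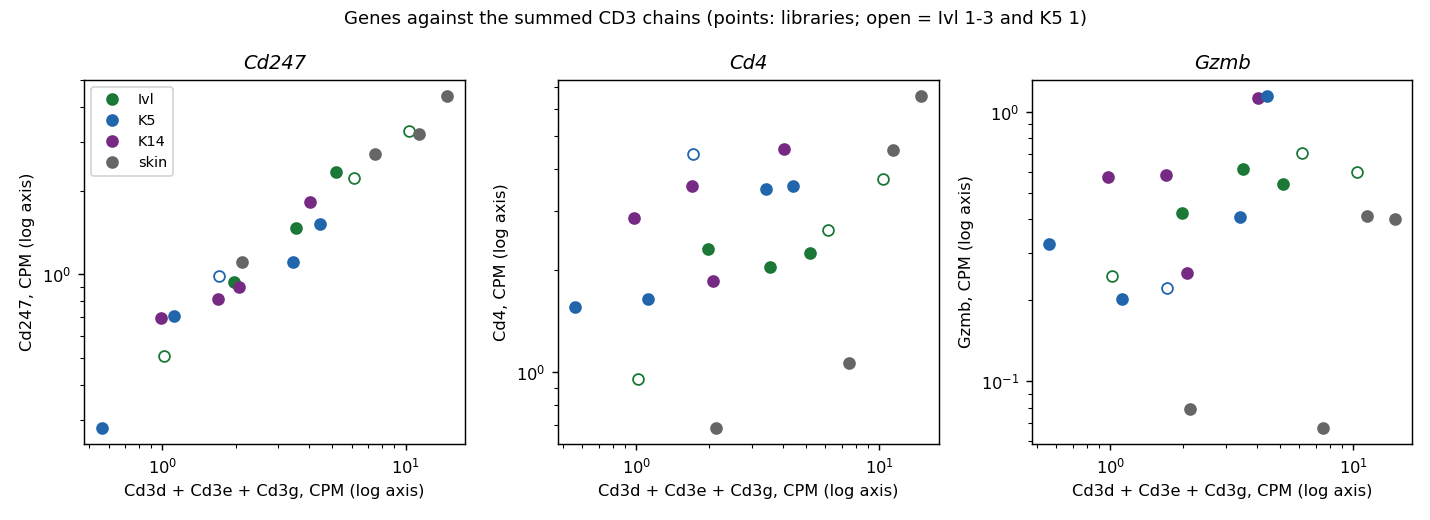
CPM of Cd247, Cd4 and Gzmb (vertical axes, log scale) against the summed CPM of Cd3d, Cd3e and Cd3g (horizontal axes, log scale) in 19 libraries, coloured by group, with open points for the set of 4. Cd247 lies along a line (r = 0.985 with the CD3 mean), while Cd4 and Gzmb scatter (0.496 and 0.213).

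Other T cell genes were taken from lists, whose counts stand beside the shares of all genes tested: 38.9% lower and 23.2% higher in K5/K14 tumours against skin, and 15.5% lower and 20.4% higher in Ivl tumours, with medians of -0.60 and -0.46. Nothing particular to a list is read from its count. In the list of 11 receptor and CD3 genes, 7 fell and 1 rose in K5/K14 tumours, and 0 fell and 1 rose in Ivl tumours. The gene that rose was Trbc2, a beta chain constant gene, by 2.34 ± 0.35 (SE) on the log2 scale in K5/K14 tumours (edgeR, adjusted p = 2.1e-05) and 2.28 ± 0.36 in Ivl tumours (adjusted p = 6.6e-05), from 376 to 1457 counts in skin to 1002 to 5066 in Ivl tumours. Trbc1, named after its values were seen, did not pass the test (-0.19 ± 0.43 and -0.72 ± 0.46), and 44.0% of the 50-base windows of Trbc2 also occur in Trbc1, so counts of the pair are uncertain. Trbc2 was far above the alpha chain in every tumour. It had 42.2 to 77.9 CPM in all tumours but Ivl tumours 2 and 3 and K5 tumour 1. Trac reached at most 1.87 CPM in any tumour. Skin also held more Trbc2 than Trac, with 376 to 1457 counts against 25 to 306. Whether the Trbc2 counts follow T cell receptor transcripts was not tested.

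Of 24 gamma-delta genes, 13 fell in K5/K14 tumours and none rose, where 38.9% of all genes were lower and 23.2% higher. Their median log2 value was -1.45, against -0.60 over all genes. They included Tcrg-C4, a gamma constant gene (-2.52 ± 0.63, edgeR adjusted p = 0.0022) and Sox13, a transcription factor of gamma-delta cells (-0.87 ± 0.19, adjusted p = 8.3e-04). The variable segments of the dendritic epidermal receptor, Tcrg-V5 and Trdv4, were picked after their values were seen. Tcrg-V5 had 14, 26, 41 and 46 counts in skin and 0 to 5 in K5/K14 tumours, and it fell by 4.10 ± 1.06 (adjusted p = 0.0029). Trdv4 had 21, 90, 177 and 192 counts in skin and 1 to 31 in K5/K14 tumours, and it fell by 2.30 ± 0.64 (adjusted p = 0.0046). In Ivl tumours Tcrg-V5 was at 27 counts in tumour 1, 5 in tumour 4, 6 in tumour 6 and 0 in the other 3 (-1.6 ± 1.04, adjusted p = 0.21).

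In Ivl tumours, where 20.4% of all genes were higher, 2 of the 24 gamma-delta genes rose and none fell. They were the cytokines Il17a (4.11 ± 1.45, edgeR adjusted p = 0.033) and Il17f (3.05 ± 1.07, adjusted p = 0.033). The Il17a counts were 0, 17, 12, 1, 10 and 78 in Ivl tumours 1 to 6 and 0, 7, 0 and 0 in skin. Most of its Ivl counts came from Ivl tumour 6, which also held the highest Trdc CPM of the tumours. Its fold rests on counts at or near 0 in skin and is uncertain. Tcrg-V6, the gamma variable segment of dermal interleukin-17 cells, was also picked after its values were seen. It was highest in Ivl tumour 6 (51 counts), with 0 to 19 in skin, and its log2 value was 1.78 ± 1.15 (adjusted p = 0.21). Between Ivl and K5/K14 tumours Sox13 was the only one of the 24 called (1.14 ± 0.17, edgeR adjusted p = 0.0032). Trdc did not pass there (adjusted p = 0.11). Which cells of the tissue carried Sox13 was not tested, so its call is not read as one of gamma-delta cells.

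**Figure D5:**
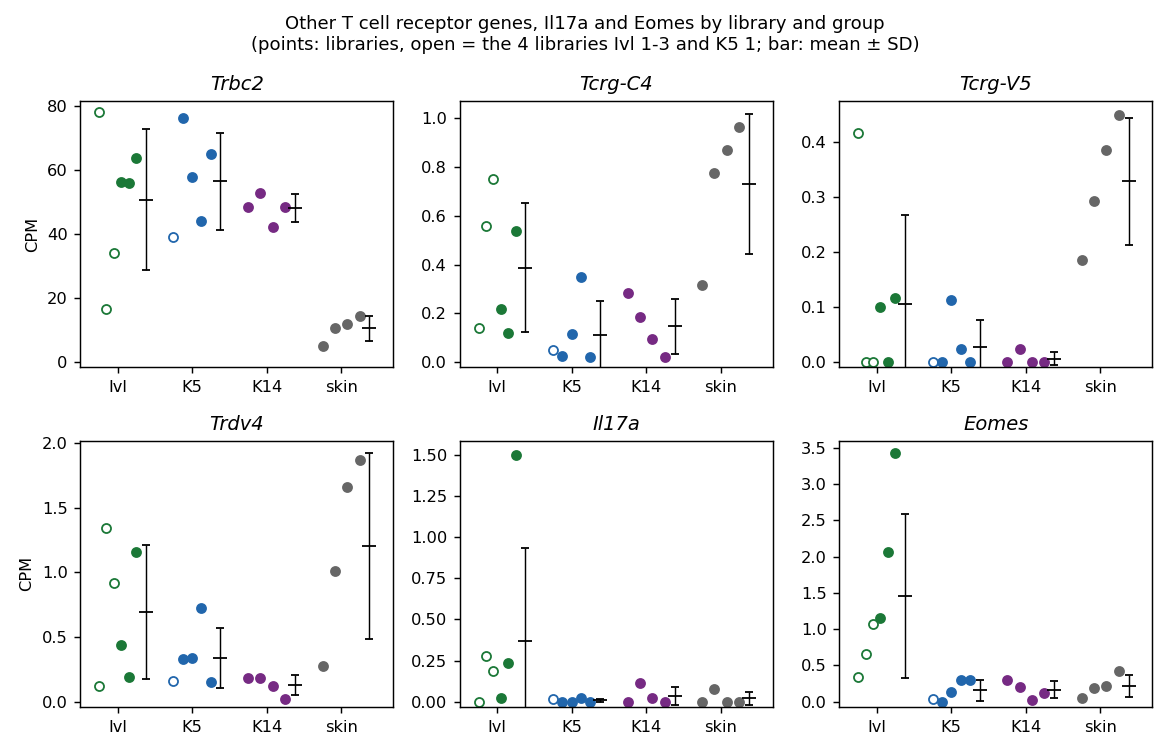
CPM (vertical axes, linear) of Trbc2, Tcrg-C4, Tcrg-V5, Trdv4, Il17a and Eomes in each library of the 4 groups, with open points for the set of 4 and bars for mean ± SD that are cut off at 0. Trbc2 is higher in the tumours than in skin, Tcrg-V5 is at or near 0 in most tumours, and Ivl tumour 6 is the highest point for Il17a and Eomes.

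The list of 20 T cell signalling and identity genes had 9 lower and 1 higher in K5/K14 tumours and 1 higher in Ivl tumours, the lower share in K5/K14 tumours being near the 38.9% of all genes. Themis (-2.29 ± 0.47, edgeR adjusted p = 4.8e-04), Lef1 (-4.29 ± 0.90, adjusted p = 7.1e-04) and Cd27 (-1.91 ± 0.48, adjusted p = 0.0024) fell, of which Lef1 is also known from hair follicle cells. Cd5, a negative regulator of receptor signalling, rose in K5/K14 tumours (1.45 ± 0.33, adjusted p = 0.0012) and in Ivl tumours (1.61 ± 0.35, adjusted p = 0.0014).

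Of 11 regulatory T cell genes, 4 fell and 1 rose in K5/K14 tumours, and 1 fell and 1 rose in Ivl tumours, in each case a share below that of all genes. Ikzf2, which encodes Helios, fell by 2.90 ± 0.49 (edgeR, adjusted p = 9.6e-05) and by 1.45 ± 0.55 (adjusted p = 0.045). Tnfrsf9, an activation receptor, rose by 1.59 ± 0.61 (adjusted p = 0.029) in K5/K14 tumours and by 1.71 ± 0.64 (adjusted p = 0.043) in Ivl tumours. Ikzf4 (-1.06 ± 0.30, adjusted p = 0.0050) fell with Foxp3 in K5/K14 tumours.

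Of the 18 cytotoxic effector genes tested (3 of 21 were not among the genes tested), 7 fell and 2 rose in K5/K14 tumours, and 3 fell and 1 rose in Ivl tumours, so the lower shares were at or near the 38.9% and 15.5% of all genes. In K5/K14 tumours Ctsw, a protease of cytotoxic lymphocytes (-1.61 ± 0.42, edgeR adjusted p = 0.0033), Gzmc (-2.12 ± 0.66, adjusted p = 0.0095) and Klrd1, a receptor of natural killer cells (-1.39 ± 0.43, adjusted p = 0.0100) fell. Ctsw (-1.42 ± 0.47, adjusted p = 0.026) and perforin, Prf1 (-1.99 ± 0.70, adjusted p = 0.032), fell in Ivl tumours. Eomes, a transcription factor of cytotoxic lymphocytes, rose in Ivl tumours against skin (2.70 ± 0.84, adjusted p = 0.017) and was higher there than in K5/K14 tumours (3.17 ± 0.64, adjusted p = 0.023), with 22 to 178 counts in Ivl tumours, 0 to 15 in K5/K14 tumours and 4 to 43 in skin. Gzma, a further granzyme, passed the test in Ivl tumours (adjusted p = 0.014) with 0 or 1 counts in each of them and 1, 1, 33 and 88 in skin, and no fold is given at such counts. Skin 3 and 4 carried its level, and K5 tumour 1 had 38.

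Checkpoint genes fell in a smaller share than the 38.9% of all genes in K5/K14 tumours. Of 8 checkpoint genes, 2 fell in K5/K14 tumours, Tox, a transcription factor of exhausted T cells (-2.39 ± 0.52, edgeR adjusted p = 7.5e-04), and Cd274, the ligand PD-L1 (-1.06 ± 0.29, adjusted p = 0.0043), and none was called in Ivl tumours. Of 15 T cell chemokines and receptors, 7 fell and 1 rose in K5/K14 tumours, with 38.9% of all genes lower and 23.2% higher. Ccr4, a skin-homing receptor (-3.11 ± 0.58, adjusted p = 2.1e-04), Cxcl11, an interferon-induced T cell attractant (-5.11 ± 0.97, adjusted p = 2.2e-04), and Cxcr6 (-1.56 ± 0.46, adjusted p = 0.0072) fell, while its ligand Cxcl16 rose (1.09 ± 0.33, adjusted p = 0.0091). Ccl27a, a chemokine of keratinocytes, was the one called in Ivl tumours (-1.69 ± 0.57, adjusted p = 0.027).

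Over the 15 libraries more genes of these lists fell in Ivl tumours against skin: 5 of the 20 signalling genes in place of 0, 2 of the 24 gamma-delta genes in place of 0, 5 of the cytotoxic genes in place of 3 and 4 of the 15 chemokine genes in place of 1. The share of all genes called lower went from 15.5% to 32.7% with the same change of libraries, and each of these lists stayed below it. Cd27 was among them, with -1.35 ± 0.53 over 19 libraries (edgeR, adjusted p = 0.054) and -2.45 ± 0.44 over the 15 (adjusted p = 3.1e-04). Between Ivl and K5/K14 tumours, none of the 20 signalling, 11 regulatory or 15 chemokine genes was called over 19 libraries (edgeR).

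Markers of other cells changed in both directions against skin. Of all genes, 38.9% were called lower and 23.2% higher in K5/K14 tumours, and 15.5% lower and 20.4% higher in Ivl tumours. Of 6 neutrophil genes 4 rose in both comparisons with skin, and their summed level was 9.26 to 38.6 CPM in skin, 58.5 to 2635 in Ivl tumours, 1241 to 2668 in K5 tumours and 814 to 1991 in K14 tumours. Of 6 keratinocyte genes 6 rose in K5/K14 and 5 in Ivl tumours. All 5 skeletal muscle genes fell in K5/K14 tumours and none was called in Ivl tumours, and 2 of 5 adipocyte genes and 1 of 5 fibroblast genes fell in K5/K14 tumours. Of 6 B cell genes 2 rose in both comparisons with skin, with a median log2 value of 1.84 in K5/K14 and 0.46 in Ivl tumours.

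Markers of natural killer cells, which share the granule genes, were low in all groups. The sum of 5 natural killer genes was 0.251 to 1.46 CPM in skin and at most 0.513 CPM in any tumour, with Ncr1 at 4, 8, 22 and 14 counts in skin and 0 to 5 in the tumours. Of these 5 genes, 2 fell in Ivl tumours (Ncr1 and Klra8) and 1 in K5/K14 tumours (Klra8), beside 15.5% and 38.9% of all genes. Of 7 Langerhans and dendritic cell genes 5 fell and 1 rose in K5/K14 tumours, where 38.9% of all genes were lower and 23.2% higher. In the same comparison 1 of 8 macrophage genes fell, 1 of 6 mast cell genes fell, and of 6 pan-leukocyte genes 1 fell (Ptprc) and 1 rose (Arhgdib). Among the skin libraries the pan-leukocyte sum ran from 57.2 to 398 CPM and Ptprc was 22.3, 27.3, 93.3 and 98.7 CPM. Skin 1 and 2, low in Ptprc, were also low against skin 3 and 4 in Trac, Cd4, Cd8a, Nkg7 and Gzmb. For Cd3e, Cd3g and Trdc skin 2 (3.07, 3.55 and 3.37 CPM) lay nearer to skin 3 and 4 than to skin 1 on the log scale. The part of these cell types in the T cell results was not tested.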

How the data were processed

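Poly(A) RNA was sequenced from 15 tumours and 4 normal skin samples, 1 library each. Per the labels and the study's methods, the authors checked reads with FastQC (0.11.8), trimmed them with Trim Galore, aligned them to GRCm38 with HISAT2 (2.1.0), counted them per gene with featureCounts (Subread 1.6.3) and adjusted the counts for batch with ComBat-seq. The deposited values are therefore estimated counts, whole numbers that rounding did not change, although the design had assumed raw counts. The count test planned for raw counts was kept. Whether strand or read pairs were used in counting is not given in the sources used here. The study's methods place the sequencing of poly(A) mouse libraries at 1 facility, while the labels of these samples name a further one, and no library is assigned to a batch in the labels.

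Groups came from the sample titles. The 32031 of 34807 genes that reached 5 counts in 1 or more libraries were fitted with edgeR (4.0.16, R 4.3.3). The quasi-likelihood test was used with trimmed mean of M values scaling and Benjamini-Hochberg adjustment over all genes (threshold 0.05). Groups were Ivl, K5/K14 and skin, with a second fit for K5 against K14. A prior count of 2 was used only for log2 CPM values, not in the fits. Each p-value sets a group difference against the spread between these samples that remained after the batch adjustment of the counts. DESeq2 (1.42.0), its size factors, no filter, a stricter filter, 15 libraries, a covariate for the set of 4, a replicate block and leaving out each library were alternatives. Ratios were compared by two-sided exact permutation tests with scipy (1.17.1), adjusted over 9. On simulated data (28921 genes, changes of 2 on the log2 scale), edgeR recovered 97% of the changed genes. This share does not give the power for the T cell genes, whose counts were low. Most of their log2 values against skin were also smaller than 2 in size. A T cell gene that did not pass the test is therefore not shown to be unchanged. Gene names came from GENCODE annotation of GRCm38, which matched 34694 of 34807 identifiers. No 2 libraries of a group agreed within sampling noise (37 pairs, smallest chi-square per degree of freedom 25.9).

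By rule, the genes named were the 10 members, up to 4 called genes with the smallest adjusted p per list and comparison, and the 5 genes most like the CD3 mean. Trbc1, Tcrg-V5, Trdv4 and Tcrg-V6 were named outside this rule, after their values were seen. The members and lists were chosen with earlier results of these data known. Some genes that this rule names are not reported here.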

Additional observations from a re-analysis of the deposited data

Results flagged for a closer look

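Of 52 groups of values tested for 1 library far from the others, 4 had one, where chance gives about 1 in 20. Trac in K14 tumour 1 was 1.83 CPM, with 0.599 to 0.731 CPM in the other 3 K14 tumours. Gzmb in K5 tumour 4 was 1.14 CPM, with 0.203 to 0.406 CPM in the other 4 K5 tumours. Normal skin 2 was set apart in 2 ratios: its Trdc to Trac ratio was 4.32, with 1.81 to 2.14 in the other 3, and its Cd3e to Ptprc ratio was 0.113, with 0.0435 to 0.0478 in the other 3.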

How the results depend on the processing

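The 6 genes that fell in K5/K14 tumours were the same under DESeq2, its size factors, both other filters, the covariate and the 15 libraries, and leaving out 1 library gave 5 to 7. In Ivl tumours against skin, 2 of the 10 were called over the 15 libraries (Cd3e and Nkg7), 1 (Cd3e) under DESeq2, the covariate and the stricter filter each, and 0 to 2 without 1 library. Between Ivl and K5/K14 tumours 2 were called by DESeq2 and 0 to 1 without 1 library. Genes called over all numbered 17566 over the 15 libraries for Ivl tumours against skin (11515 over 19). For Ivl against K5/K14 tumours there were 131 over the 15 libraries, 2133 by DESeq2, 449 with the covariate, 46 with the replicate block and 127 to 1328 without 1 library (756 over 19), and for K5 against K14 tumours 17 over the 15 libraries and 173 by DESeq2 (0 by edgeR). The causes were not tested.

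Deviations of same-numbered libraries were weakly related at most (25 pairs, r from -0.333 to 0.212, median 0.0178, 9 over 0.1). The check gave no clear sign that the numbers pair the samples, but it cannot exclude a weak pairing. With the replicate block 5 of the 10 fell in K5/K14 tumours (Cd8a adjusted p = 0.058). The block reversed Cd3d in Ivl tumours against skin (0.0073), Cd3g between K5 and K14 tumours (-0.11), Cd4 in K5/K14 tumours against skin (0.21) and Gzmb between Ivl and K5/K14 tumours (0.15), as did the covariate for the last (0.17), none of them called.

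Over the 15 libraries the Cd3e to Ptprc difference between Ivl and K5/K14 tumours was 0.97 and the Trdc to Trac difference between K5/K14 tumours and skin -1.32, neither past the threshold. Without 1 library these ranged from 0.636 to 0.910 and from -1.59 to -1.15, the Trdc to Trac difference between Ivl and K5/K14 tumours from 0.887 to 1.24, Cd8a to Cd4 in K5/K14 tumours against skin from -2.03 to -1.45 and Cd3e to Ptprc there from -1.24 to -0.787. Values that changed sign without 1 library were Cd4 against skin (-0.81 to 0.13 in Ivl and -0.40 to 0.54 in K5/K14 tumours), Cd8a (-0.0398 to 0.57) and Gzmb (-0.15 to 0.18) between Ivl and K5/K14 tumours, and between K5 and K14 tumours Cd3d (-0.63 to 0.29), Cd3e (-0.29 to 0.13), Cd3g (-0.36 to 0.81), Cd4 (-0.32 to 0.10), Cd8a (-0.45 to 0.0805), Foxp3 (-0.86 to 0.44), Nkg7 (-0.61 to 0.13) and Trac (-0.62 to 0.23). In all, 1021 single-gene values kept their direction and side of the threshold, 32 reversed, 14 passed it and 3 were lost.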
